A study of Mus musculus with 6 samples.

Results

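miR-204 and miR-211 are close relatives whose 5p arms share a seed, the stretch of bases 2 to 8 that pairs with target mRNAs. They were measured here by small RNA sequencing in mouse cortical oligodendrocyte progenitor cells (OPCs), the cells that mature into myelin-forming oligodendrocytes (OLs). The members were the rows for their arms, taken by name and not by level: miR-204-5p, miR-204-3p and miR-211-5p, 3 of the 1506 rows of the expression table, which lists 1198 known miRNAs and 308 predicted ones. The 6 libraries came from wild-type C57BL/6 primary cultures started from newborn cortex, 3 given fibrinogen (the plasma protein that forms clots, at a dose written in the column headers as 2.5 mg) and 3 left untreated as controls. The comparison asks whether fibrinogen shifts miRNAs of OPCs. The column headers number the libraries of each group as mouse 1 to 3, and whether a number stands for the same animal in both groups is not given in the sources used here. How long the cells were exposed, and whether a culture pooled several pups, is not given either, so p-values measure only the spread between these libraries, which may be technical.

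A miRNA is cut from a hairpin transcript, and usually only 1 arm of the hairpin is kept in quantity by the Argonaute protein while the other, the passenger, is degraded. Mir204 is carried by the cation channel gene Trpm3 and Mir211 by its relative Trpm1, the melanocyte gene melastatin. miR-204 is known for its abundance in the choroid plexus and the retinal pigment epithelium, where it helps to keep cells epithelial, and miR-211 for melanocytes. Runx2, a transcription factor of bone formation, is a known target of both.

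The mature sequences are shown first, because their likeness sets how the reads can be read. Each is written 5′ to 3′ with the seed in capitals, from RefSeq on GRCm38.p6, where 3 of 3 members were matched.
miR-204-5p: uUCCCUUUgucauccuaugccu
miR-211-5p: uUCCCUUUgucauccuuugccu
miR-204-3p: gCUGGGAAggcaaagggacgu
The 5p arms of miR-204 and miR-211 had the same seed and matched at 21 of 22 bases. The change from miR-204-5p to miR-211-5p was A17U, counted from the 5′ end. A read that stops before base 17 therefore cannot be told apart between them, and how such reads or mismatches were assigned is not given in the sources used here. Of 1738 mature mouse miRNAs in the RefSeq table, 3 had this seed, and miR-204-5p and miR-211-5p were the 2 of them in the expression table. The passenger miR-204-3p has another seed and so another set of possible targets.

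The hairpins show where the arms lie, with the arms of the expression table in capitals. The other arm of Mir211, miR-211-3p, was not analysed here.
Mir204: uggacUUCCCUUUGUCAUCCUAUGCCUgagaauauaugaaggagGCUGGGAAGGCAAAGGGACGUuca
Mir211: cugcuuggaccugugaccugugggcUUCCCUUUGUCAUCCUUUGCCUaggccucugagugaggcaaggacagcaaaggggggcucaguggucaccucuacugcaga
On GRCm38.p6, Mir204 spans chr19:22750605-22750672 and Mir211 spans chr7:64205806-64205911, both on the plus strand. Each lay inside its host gene, Trpm3 and Trpm1, and overlapped no annotated exon in GENCODE M39 on GRCm39, which makes both of them intronic.

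The libraries held 12120909 to 13624613 listed miRNA reads in fibrinogen-treated OPCs and 11897645 to 14847034 in untreated OPCs. Values are called TPM in the table and are reads scaled to the library (RPM) with no correction for length, so that 1 read was worth 0.0669 to 0.0841 TPM and whole reads could be recovered. The listed values summed to 972508 to 986727 TPM in fibrinogen-treated and 992890 to 1007870 TPM in untreated libraries. The base of the scaling was therefore not exactly the listed reads. Of the 5 miRNAs listed for the OL lineage, the most abundant were miR-138-5p and miR-338-3p. Whether these came from OPCs, from more mature OLs or from other cells was not tested. miR-338-3p had 2687 ± 643 TPM in fibrinogen-treated and 2944 ± 72.2 TPM in untreated OPCs (SD, n = 3 each). miR-138-5p had 9465 ± 653 TPM in fibrinogen-treated and 10517 ± 2310 TPM in untreated OPCs. miRNAs listed for other brain cells were present too, and from which cells they came was not tested. The sum over 6 miRNAs listed for neurons was 96019 to 100644 TPM in fibrinogen-treated and 118426 to 125526 TPM in untreated libraries. miR-128-3p, with 45234 ± 3576 TPM in fibrinogen-treated and 63655 ± 5181 TPM in untreated OPCs, made up 78.1% of the net gap between the mean sums, while the means of miR-129-5p and miR-132-3p differed the other way. The sum over 5 immune miRNAs was 1318 to 1587 TPM in fibrinogen-treated and 1407 to 2114 TPM in untreated libraries. That over 2 endothelial miRNAs was 10599 to 13328 TPM in fibrinogen-treated and 10630 to 14101 TPM in untreated libraries.

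miR-204-5p was the arm that these cells held in quantity, and its level did not move detectably with fibrinogen. It had 409, 428 and 472 TPM in fibrinogen-treated libraries 1 to 3, against 432, 516 and 392 TPM in untreated libraries 1 to 3. The highest and the lowest of the 6 values both came from untreated OPCs, and all 3 fibrinogen-treated libraries lay between them. The means were 436 ± 32.4 TPM in fibrinogen-treated and 446 ± 63.1 TPM in untreated OPCs (SD, n = 3 each). The log2 fold change was -0.03 (standard error 0.14, limma adjusted p = 0.942), and an exact two-sided permutation test of the 6 libraries gave p = 0.8, where 0.1 is the smallest p possible. In bulk cultures fewer cells of a type and less RNA in each cell cannot be told apart.

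On the TPM scale the 95% interval of the log2 fold change ran from -0.35 to 0.30, that is, from 0.785-fold to 1.23-fold. Larger changes lie outside it on this scale only, and no interval is given for another scaling. Of 607 miRNAs tested, 17, or 2.8%, were called at an adjusted p under 0.05, with 13 (2.14%) higher and 4 (0.659%) lower in fibrinogen-treated OPCs. Of the members, 0 of the 1 tested was called in either direction. On the TPM scale 33 of the 607, or 5.44%, had a smaller absolute log2 fold change than miR-204-5p, and this rank was not computed for another scaling. The fold changes of all tested miRNAs were shifted upwards, with a median of 0.13 on the log2 scale, and median-of-ratios scaling brought this median to 0.00 and the log2 fold change of miR-204-5p to -0.16 (adjusted p = 0.512). The difference was smaller than its standard error on the TPM scale and passed the threshold on neither scale.

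**Figure D1:**
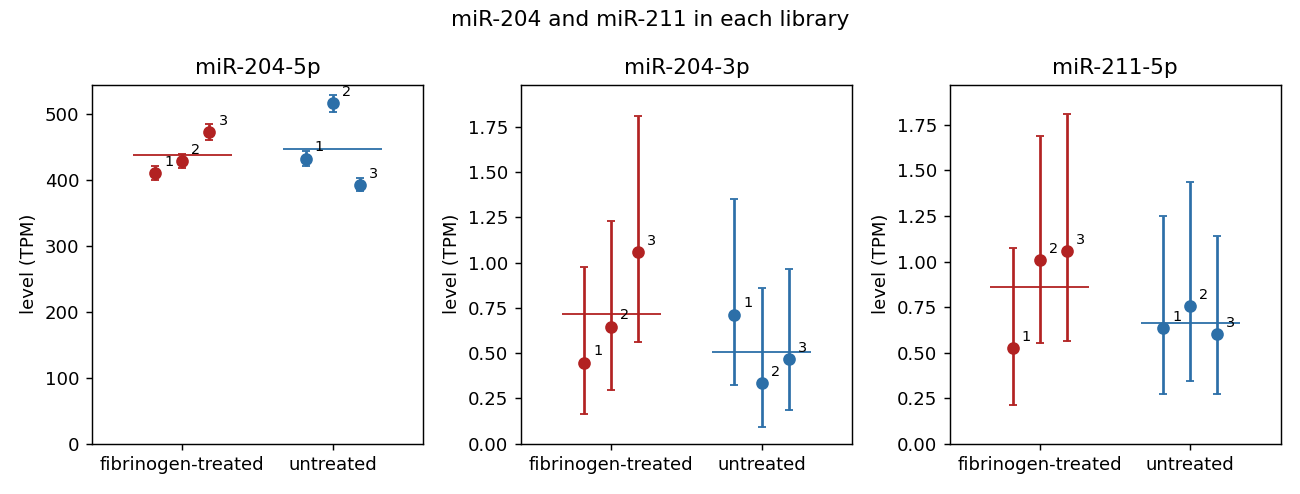
Level in TPM (y axis, from 0) of miR-204-5p, miR-204-3p and miR-211-5p in each library, numbered by replicate, in 3 fibrinogen-treated (left) and 3 untreated (right) cultures. Horizontal lines are group means and bars are 95% Poisson intervals of the reads, for counting error only; the groups overlap for every member, and the bars are short for miR-204-5p and wide for the other two.

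Depth did not limit the measurement of miR-204-5p. Its 5453 to 6130 reads per library give a counting error of 1.31% to 1.32% around the mean of a group, while the libraries spread by a coefficient of variation of 7.41% in fibrinogen-treated and 14.1% in untreated OPCs. Differences between libraries, not counting, therefore made up nearly all of its error. The within-group SD on the log2 scale was 0.16, against a median of 0.19 for the 111 tested miRNAs with a mean of 100 to 1000 TPM. The highest library stood 1.32-fold above the lowest.

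**Figure D2:**
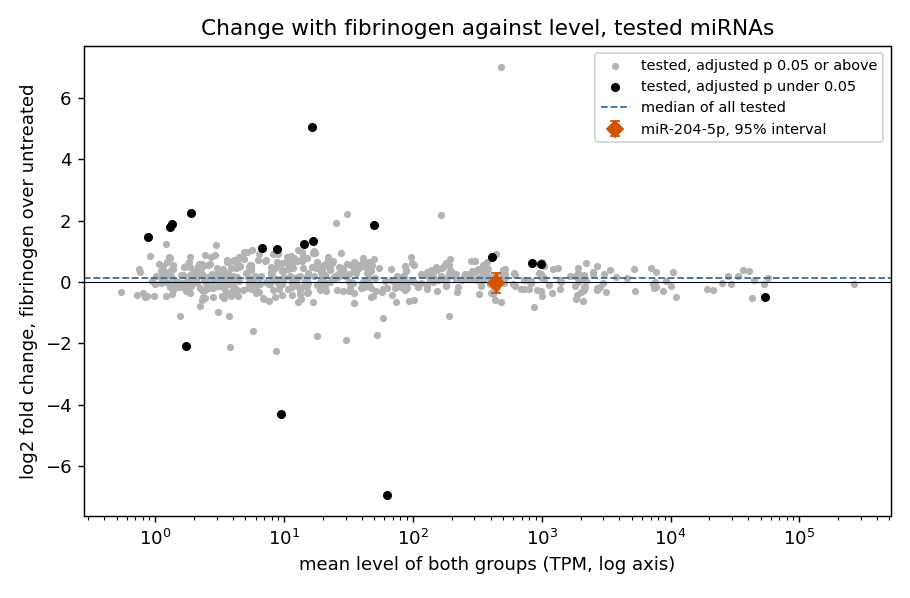
Log2 fold change, fibrinogen-treated over untreated OPCs, against the mean level of both groups (TPM, log axis) for the 607 tested miRNAs, with those at an adjusted p under 0.05 in black. miR-204-5p (diamond, 95% interval from -0.35 to 0.30) sits near 0, just below the dashed median of all tested miRNAs at 0.13.

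By mean level miR-204-5p ranked 96 of 1198 known miRNAs, between miR-341-3p at 442 TPM and miR-219a-2-3p at 438 TPM over the 6 libraries. Its rank ran from 97 to 104 in fibrinogen-treated and from 87 to 105 in untreated libraries. Over all libraries these neighbours in the order did not differ from it beyond their spread. By group, miR-219a-2-3p, an OL-lineage miRNA from a miR-219 hairpin, had 571 ± 117 TPM in fibrinogen-treated and 306 ± 74.0 TPM in untreated OPCs (SD, n = 3 each, log2 fold change 0.91, limma adjusted p = 0.0836).

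The passenger arm miR-204-3p was near the limit of detection. It had 6, 9 and 13 reads in fibrinogen-treated libraries 1 to 3, or 0.448, 0.647 and 1.06 TPM, against 9, 4 and 7 reads in untreated libraries 1 to 3, or 0.713, 0.336 and 0.468 TPM. The groups overlapped, since untreated library 1 was above 2 of the 3 fibrinogen-treated libraries. A level of at least 1 TPM was reached in 1 of 6 libraries, so that this arm did not enter the test across miRNAs. Pooled, the 28 reads of fibrinogen-treated and 20 reads of untreated OPCs gave a ratio of levels of 1.40, with a 95% counting interval of 0.759 to 2.61, and the exact permutation test of log2(TPM + 1) gave p = 0.5 (difference 0.18, two-sided, n = 3 each). At this depth no difference was detected, and the interval is wide.

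miR-211-5p, the seed twin from the Trpm1 locus, was as rare. It had 7, 14 and 13 reads in fibrinogen-treated libraries 1 to 3, or 0.523, 1.01 and 1.06 TPM, against 8, 9 and 9 reads in untreated libraries 1 to 3, or 0.633, 0.757 and 0.602 TPM. Fibrinogen-treated libraries 2 and 3 were above all untreated libraries and library 1 was below them all, so that the groups overlapped. With 34 reads in fibrinogen-treated and 26 in untreated OPCs the ratio of pooled levels was 1.30 (95% counting interval 0.760 to 2.26), and the exact permutation test gave p = 0.4 (difference 0.15 on log2(TPM + 1), two-sided, n = 3 each). It reached 1 TPM in 2 of 6 libraries and was not tested across miRNAs either. Among all tested miRNAs the libraries of the groups did not overlap for 201, or 33.1%, and among the members for 0 of 3.

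The spread of the rare members was set beside what counting alone gives. For miR-204-3p the coefficient of variation was 43.4% in fibrinogen-treated and 37.8% in untreated OPCs, where the mean number of reads gives 32.7% and 38.7%. For miR-211-5p it was 34.3% and 12.3%, where counting gives 29.7% and 34.0%, so that its untreated libraries lay closer together than counting error alone would put them on average.

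**Figure D3:**
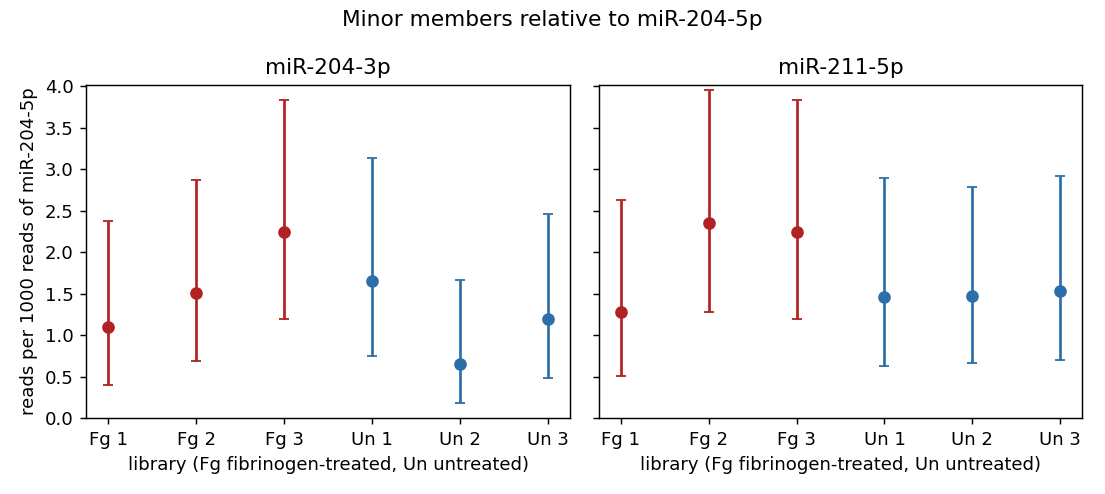
Reads of miR-204-3p (left) and miR-211-5p (right) per 1000 reads of miR-204-5p in each library, with fibrinogen-treated libraries left of untreated ones. Bars are 95% Clopper-Pearson intervals, for counting error only; the points lie between 0.653 and 2.35 and all bars of a panel overlap.

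Within a library the arms of Mir204 were used very unequally, and a ratio of reads does not depend on how libraries are scaled. miR-204-5p made up 99.8% of the pooled reads of both arms in fibrinogen-treated and 99.9% in untreated OPCs. There were 1.09, 1.51 and 2.24 reads of miR-204-3p per 1000 reads of miR-204-5p in fibrinogen-treated libraries 1 to 3, against 1.65, 0.653 and 1.19 in untreated libraries 1 to 3. The 5p arm was thus the kept strand in every library. The log2 ratio of 3p over 5p on TPM + 1 differed by 0.21 between the groups (exact two-sided permutation test, p = 0.5, n = 3 each). Unlike the ratio of reads, this value is not free of scaling, because of the added 1. This value depends on the pseudocount (0.44 with 0.1 and 0.08 with 5) and on untreated library 2, without which it was 0.02; leaving out another library gave 0.13 to 0.32.

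Between the seed twins, nearly all reads were listed for miR-204-5p. Of the reads of miR-204-5p and miR-211-5p together, miR-204-5p had 99.8% in fibrinogen-treated and 99.9% in untreated OPCs, and the summed level of both was 437 ± 32.6 and 447 ± 63.2 TPM in these groups (SD, n = 3 each). The reads of miR-211-5p per 1000 reads of miR-204-5p were 1.28, 2.35 and 2.24 in fibrinogen-treated libraries 1 to 3, against 1.47, 1.47 and 1.54 in untreated libraries 1 to 3. At such a ratio, and with 1 base between the sequences, it was not tested how many of these reads came from Mir211 itself. The log2 ratio of miR-211-5p over miR-204-5p on TPM + 1 differed by 0.18 between the groups (exact two-sided permutation test, p = 0.3, n = 3 each). It was 0.31 with a pseudocount of 0.1 and 0.07 with 5, 0.27 without fibrinogen-treated library 1, 0.10 without fibrinogen-treated library 2 and 0.11 without untreated library 2.

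In the order of levels, miR-211-5p ranked 539 and miR-204-3p 564 of 1198 known miRNAs. miR-211-5p had more reads than miR-204-3p in 4 of 6 libraries, as many in 1 and fewer in 1, and their counting intervals overlapped in each library, so that these neighbours cannot be ordered. Both stood far below miR-204-5p in this order.

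Since miR-204 is known from the choroid plexus, 12 miRNAs of ciliated and other epithelia were set beside it. Of the 11 that were tested, 0 rose and 0 fell, 10 had a log2 fold change above 0, and the median was 0.68, beside 0.13 for all tested miRNAs. As the fold changes of all tested miRNAs were shifted upwards and several of the 11 share the miR-200 family, this count is a description only. The summed level of the 12 was 428, 992 and 668 TPM in fibrinogen-treated libraries 1 to 3, against 626, 195 and 310 TPM in untreated libraries 1 to 3. This sum varied 5.09-fold between libraries, whereas miR-204-5p varied 1.32-fold. In untreated library 2 the epithelial sum was lowest and miR-204-5p was highest, at 516 TPM.

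miR-200a-3p, which maintains epithelial identity by repressing Zeb factors, had 96.4, 442 and 263 TPM in fibrinogen-treated libraries 1 to 3, against 124, 21.5 and 43.5 TPM in untreated libraries 1 to 3. Its log2 fold change of 2.17 did not pass (standard error 0.73, limma adjusted p = 0.149). miR-34c-5p, a miRNA of multiciliated cells, had 206, 217 and 237 TPM in fibrinogen-treated and 362, 103 and 166 TPM in untreated libraries 1 to 3. None of the 12 was at 0 in all libraries, and miR-449c-5p, another miRNA of multiciliated cells, was the rarest at 0.481 ± 0.0461 TPM in fibrinogen-treated and 0.347 ± 0.116 TPM in untreated OPCs (SD, n = 3 each). Whether epithelial cells in the cultures added to miR-204-5p was not tested.

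Of 5 miRNAs listed for cultured astrocytes 4 were tested, and 0 rose and 0 fell. Of these, 3 had a log2 fold change above 0, and the median was 0.37. Whether the listed miRNAs came from astrocytes was not tested. Their summed level was 6439 to 8256 TPM in fibrinogen-treated and 6052 to 7371 TPM in untreated libraries. The most abundant of them were miR-143-3p and miR-21a-5p, which differed in direction (log2 fold changes 0.51 and -0.33). Fibrinogen-treated library 1 had the highest of these sums, at 8256 TPM, and the lowest miR-204-5p of its group, at 409 TPM. In that library miR-143-3p had 3649 TPM. Among 5 OL-lineage miRNAs, all tested, 0 rose and 0 fell, 3 had a log2 fold change above 0 and the median was 0.00; miR-219a-2-3p, given above, stood apart at 0.91 with groups that did not overlap. By library the OL-lineage sum was 14340, 13440 and 11456 TPM in fibrinogen-treated libraries 1 to 3, against 12246, 16651 and 13366 TPM in untreated libraries 1 to 3. Untreated library 2 was the highest in both this sum and miR-204-5p, while fibrinogen-treated library 3 had the lowest sum and the second-highest miR-204-5p. Most of the sum was miR-138-5p, which was highest in untreated library 2 at 13130 TPM, as was miR-338-5p at 8.49 TPM. By contrast, miR-219a-2-3p was at its lowest in that library, at 222 TPM. The part of these cell types in the level of miR-204-5p was not tested. Of 6 neuronal miRNAs 1 fell, miR-128-3p (limma adjusted p = 0.0410), beside 0.659% called lower among all tested miRNAs. This call was lost when untreated library 1 or 2 was left out, as no miRNA was then called lower. Of 5 immune and 2 endothelial miRNAs none passed.

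Profiles were also compared by the root mean square difference between log2(TPM + 1) values centred on their mean over the 6 libraries. Of 513 other known miRNAs tested, those most like miR-204-5p were miR-1b-3p at 0.08, miR-98-5p at 0.08 and miR-670-5p at 0.09, against a median of 0.29. miR-98-5p, a let-7 relative at a like level, had 492, 492 and 510 TPM in fibrinogen-treated and 459, 639 and 426 TPM in untreated libraries 1 to 3, again with untreated library 2 highest and untreated library 3 lowest. miR-1b-3p and miR-670-5p were at 1.11 to 2.02 TPM, where the pseudocount flattens any profile. These distances are a description of 6 libraries.

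**Figure D4:**
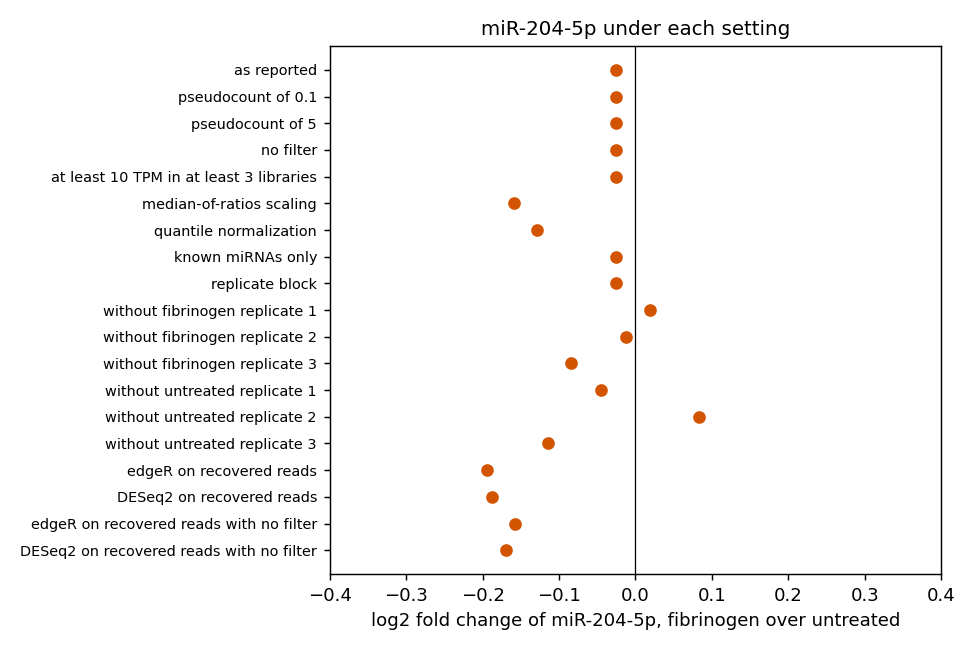
Log2 fold change of miR-204-5p (x axis, fibrinogen-treated over untreated OPCs) as reported (-0.03, top) and under 18 other settings of scaling, filter, pseudocount, tool or libraries. The points run from -0.19 to 0.08, 16 of the 18 alternatives are below 0, and none passed the test. Other filters, known miRNAs alone and the replicate block leave the value at -0.03, so the settings are not separate from each other.

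The sign of this small difference rested on single libraries. Without untreated library 2 the log2 fold change of miR-204-5p was 0.08 (limma adjusted p = 0.683), and without fibrinogen-treated library 1 it was 0.02 (adjusted p = 0.972), so that no direction can be given for miR-204-5p from these data. Over the 18 alternatives its adjusted p ran from 0.443 to 0.978.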

How the data were processed

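Total RNA of 6 OPC cultures was made into small RNA libraries with a kit designed to remove PCR duplicates. The authors filtered reads, trimmed adapters with cutadapt 1.15, removed duplicates, mapped with Bowtie 1.1.2 and counted miRBase miRNAs with miRDeep2. GRCm39 is the genome in the paper and mm10 in the labels. The deposited values, called TPM by the authors, are RPM: within a tolerance of 0.1, 99.8% to 100% of values above 0 were whole multiples of 1 step per library. Dividing by the step gave the reads.

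Groups were compared with limma 3.58.1 (R 4.3.3, trend) on log2(TPM + 1), two-sided, for the 607 miRNAs that reached 1 TPM in 3 or more libraries. This fold change understates the change of rare miRNAs. Adjusted p-values are Benjamini-Hochberg values over these 607. Intervals cover 95% and, where made from reads, counting error only. The fits were tested on simulated data. edgeR 4.0.16 and DESeq2 1.42.0 on recovered reads, other pseudocounts, filters and scalings, a replicate block and leaving out libraries were alternatives. The fold changes of the authors were not used. The members, the lists and the rule for named miRNAs (members, same-seed miRNAs, the 3 most similar profiles, up to 2 per list by level) were chosen with earlier results of these data known. miR-449c-5p and the neighbours in the order of levels were named after their values were seen.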

Additional observations from a re-analysis of the deposited data

How the results depend on the processing

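Among the members, miR-204-5p stayed short of the threshold under all 18 alternatives. Its log2 fold change, -0.03 as reported, was -0.16 with median-of-ratios scaling, -0.13 with quantile normalization, -0.19 with edgeR and -0.19 with DESeq2. Leaving out a library in turn gave -0.11 to 0.08, and the sign turned without fibrinogen-treated library 1 (0.019) and without untreated library 2 (0.083). With a pseudocount of 0.1 the difference of miR-204-3p moved to 0.41, against 0.18 as reported, and leaving out a library gave 0.04 to 0.30. That of miR-211-5p ran from 0.07 to 0.29 in this way. Without the filter, neither passed in limma (adjusted p = 0.682 each), edgeR (0.785 and 0.836) or DESeq2 (0.919 and 0.938), the last 2 added after the data were seen. The minimum of 10 TPM, the fit of known miRNAs and the block gave no value for these rare members.

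Counts over all miRNAs moved more. Against 13 higher and 4 lower in fibrinogen-treated OPCs, no filter gave 8 higher (of 1410 tested), the minimum of 10 TPM 7 higher, known miRNAs alone 1 lower, edgeR 8 higher and DESeq2 27 higher and 37 lower. On all miRNAs with a read, edgeR gave 6 higher and DESeq2 35 higher and 30 lower. When 1 library was left out, 0 (fibrinogen-treated library 1 left out) to 39 (untreated library 3 left out) were higher and 0 (untreated library 1 or 2 left out) to 6 (fibrinogen-treated library 3 left out) were lower. The headers number the libraries by mouse without saying whether the groups share animals. Same-numbered libraries had correlations of deviations of 0.0377, 0.233 and 0.124, and 5 of 6 libraries correlated best with their own number. These matches were counted from both groups over the same correlations, so they are not separate, and no rate expected by chance was computed. They are no more than a hint from the data. The replicate block gave 11 higher and 4 lower, and miR-204-5p at an adjusted p of 0.949. Depth limits miR-204-3p and miR-211-5p, with 4 to 14 reads in a library. The cause of these moves was not tested.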
